A study of Mus musculus with 12 samples.

Results

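Ifitm1, Ifitm2 and Ifitm3 encode small interferon-induced transmembrane proteins. They were chosen by measured values, since the levels of Ifitm2 and Ifitm3 had been lower in the transfer of IFN-γ-deficient T cells, 1 of the study's comparisons, in an earlier analysis of these data. All probe sets listed for 1 of these genes alone were taken, which gave 3 of the 45101 probe sets of the array, 1 for each gene, and 3 of the 18193 genes represented. The probe sets are 1424254_at for Ifitm1, 1417460_at for Ifitm2 and 1423754_at for Ifitm3. Because the transfer comparison chose the genes, their values in it are given as a description without a test. The comparison of SKG with BALB/c cells played no part in the choice and was tested.

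The series measured CD4+ T cells of female mice on 12 Affymetrix arrays, 3 in each of 4 groups, in work on Th17 cells, the helper lineage that makes IL-17. The SKG group came from lymph nodes of SKG mice at 40 weeks, a BALB/c-background strain with a Zap70 point mutation that is known for autoimmune arthritis, and held CD4+ cells without FR4, a folate receptor carried by many regulatory T cells. The BALB group came from BALB/c mice of 40 weeks. Its replicates 2 and 3 were sorted and sourced as in SKG, but the labels of replicate 1 name spleen beside lymph node as its source and mention no FR4 sort. Cells of both groups were stimulated with PMA and ionomycin, which activate T cells without engaging the antigen receptor. The transfer groups were CD4+ T cells from the spleens of mice of 7 weeks, 7 days after transfer. In the IFNg transfer, cells of IFNg KO BALB/c mice were placed in RAG2 KO BALB/c hosts, which lack T and B cells but keep myeloid and NK cells. In the IL-6 transfer, cells of IL-6 KO BALB/c mice were placed in IL-6 KO RAG2 KO BALB/c hosts. Donor and host genotype therefore differ together between these groups, and no group received unmodified cells. The labels give no stimulation for the transfer groups, and do not say whether replicates came from separate animals, so the p-values measure a spread between arrays that may be technical.

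Proteins of this family sit in the plasma membrane and in endosomes and hinder the fusion of enveloped viruses with the cell. Their genes lie side by side and are induced by type I interferons and by IFN-γ, through STAT complexes that bind interferon-stimulated response elements (ISRE) and gamma-activated sites (GAS). In T cells they are known as genes that change with activation, and Ifitm1, also called Leu-13 or CD225, was first described as a leukocyte surface antigen.

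The start regions of the 3 genes are shown because interferon acts on such genes through short elements near the start. All 3 genes matched an entry of the RefSeq promoter table (GRCm38.p6), and each entry spans 300 bases. The lines give the 100 bases before each start, and for Ifitm3 also the first 30 bases of the transcript, where its matches lie. Capitals mark matches to GAAANNGAA, the core of an ISRE, or TTCNNNGAA, a GAS-like string, searched on both strands.
Ifitm1, chr7:140967976-140968075, plus strand, -100 to -1: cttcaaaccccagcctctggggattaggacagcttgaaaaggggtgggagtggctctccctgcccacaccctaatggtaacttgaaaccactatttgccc
Ifitm2, chr7:140955962-140956061, minus strand, -100 to -1: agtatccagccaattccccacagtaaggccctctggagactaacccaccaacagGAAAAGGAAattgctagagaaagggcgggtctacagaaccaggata
Ifitm3, chr7:141010745-141010844, minus strand, -100 to -1: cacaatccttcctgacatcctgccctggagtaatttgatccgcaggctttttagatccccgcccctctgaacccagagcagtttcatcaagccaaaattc
Ifitm3, chr7:141010715-141010744, minus strand, 1 to 30: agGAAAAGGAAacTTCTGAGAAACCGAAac

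Ifitm2 held 1 ISRE-like match, GAAAAGGAA, at -46 to -38. Ifitm3 held the same GAAAAGGAA at 3 to 11 and another match, GAAACCGAA, at 20 to 28. The GAS-like match of Ifitm3, TTCTGAGAA at 14 to 22, overlaps the latter. Within its 300 bases Ifitm1 held neither string. Over all 32851 promoter windows of this length, 8.56% held at least 1 ISRE-like match, 0.624% held 2 or more, and 8.30% held a GAS-like match. The longest run shared by the windows of Ifitm2 and Ifitm3 was caggaaaaggaaa, 13 bases, which contains the ISRE-like match. These are matches of letters and no measure of binding.

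The deposited intensity of Ifitm1 was 290.4, 225.1 and 130.8 in SKG replicates 1, 2 and 3, and 41.6, 37.2 and 75.8 in BALB replicates 1, 2 and 3. It was 555.3, 469 and 559.6 in the IFNg transfer and 1713.4, 1319.7 and 1238.9 in the IL-6 transfer. No array of a group lay within the range of another group, and the order was IL-6 transfer, IFNg transfer, SKG and BALB. On the log2(intensity + 16) scale after quantile normalization, used for all levels and differences below, the group means were 10.43 ± 0.16, 9.13 ± 0.22, 7.82 ± 0.74 and 6.02 ± 0.18 in that order (SD, n = 3 each).

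The intensity of Ifitm2 was 730.1, 442 and 269.8 in SKG replicates 1, 2 and 3, and 66, 49.7 and 85.1 in BALB. It was 359, 307 and 387.5 in the IFNg transfer and 1799.5, 1409.3 and 1435.9 in the IL-6 transfer. The IL-6 arrays were above all others and the BALB arrays below all others, while the SKG and IFNg arrays overlapped. The group means were 10.55 ± 0.16 in the IL-6 transfer, 8.89 ± 0.88 in SKG, 8.55 ± 0.27 in the IFNg transfer and 6.34 ± 0.15 in BALB (SD, n = 3 each).

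The intensity of Ifitm3 was 702, 527.8 and 297.8 in SKG replicates 1, 2 and 3, and 163.8, 174.5 and 199.9 in BALB. It was 311.6, 299.1 and 247 in the IFNg transfer and 2566, 1591.1 and 1370.5 in the IL-6 transfer. The order of the groups was that of Ifitm2, again with SKG and the IFNg transfer overlapping. The group means were 10.76 ± 0.38 in the IL-6 transfer, 8.996 ± 0.809 in SKG, 8.26 ± 0.05 in the IFNg transfer and 7.61 ± 0.12 in BALB (SD, n = 3 each). The intensities of different probe sets are not on a common scale, so no level is compared between the genes. Age, tissue and labelled stimulation differ between the transfer groups and the other groups, so the order across all 4 groups is a description. Fewer cells with a transcript and less transcript per cell cannot be told apart in such bulk samples.

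**Figure D1:**
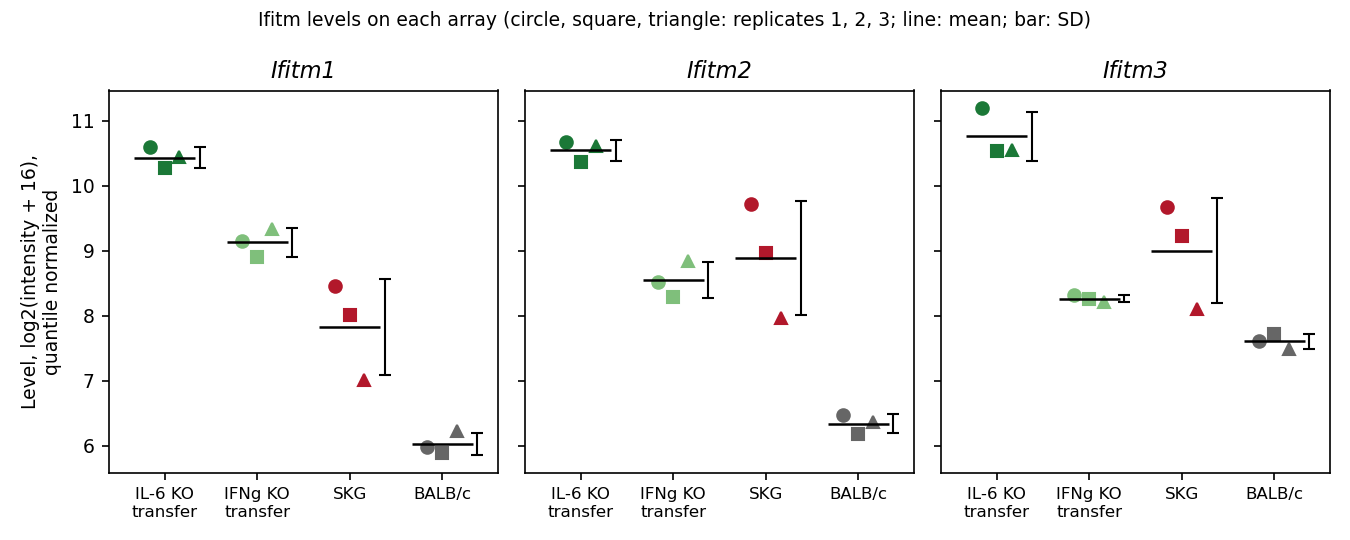
Level of Ifitm1, Ifitm2 and Ifitm3 on each array (y axis, quantile-normalized log2(intensity + 16)) by group (x axis), with points for the 3 replicates, a line for the mean and a bar for the SD. The IL-6 transfer is highest and BALB/c lowest for each gene, and SKG replicate 3 is the lowest SKG array in every panel.

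All 3 genes rose in SKG cells against BALB/c cells. Ifitm2 rose by 2.55 ± 0.37 (SE) on the log2 scale, 5.86-fold (limma adjusted p = 0.0017). Ifitm1 rose by 1.80 ± 0.33, 3.48-fold (limma adjusted p = 0.0046). Ifitm3 rose by 1.39 ± 0.35, 2.62-fold (limma adjusted p = 0.017). SKG and BALB arrays did not overlap for any of the 3 genes, all of which passed the filter on dim genes. With the replicate number as a block all 3 passed too. Of the 12079 genes tested, 15.8% passed upwards (19.9% with the block) and 24.9% had every SKG array above every BALB array, so passing alone was common in this comparison. By size the 3 genes stood further out, since 0.488% of tested genes had a larger difference than Ifitm2, 1.25% a larger one than Ifitm1 and 2.65% a larger one than Ifitm3.

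The smallest distance between an SKG and a BALB array was 1.501 for Ifitm2, 0.79 for Ifitm1 and 0.38 for Ifitm3 on the log2 scale. The SKG arrays spread widely, with SDs of 0.74 to 0.88 against 0.12 to 0.18 in BALB, and for each gene replicate 1 was the highest and replicate 3 the lowest of them. Without SKG replicate 3 the rises were 2.20 for Ifitm1, 3.001 for Ifitm2 and 1.84 for Ifitm3. Ifitm3 lost its call without SKG replicate 1 (1.05, limma adjusted p = 0.059), without SKG replicate 2 (1.28, adjusted p = 0.063) or without BALB replicate 1, the array with the different sort (1.39, adjusted p = 0.051). Without BALB replicate 1, Ifitm1 (1.77, limma adjusted p = 0.020) and Ifitm2 (2.61, adjusted p = 0.0080) still passed.

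**Figure D2:**
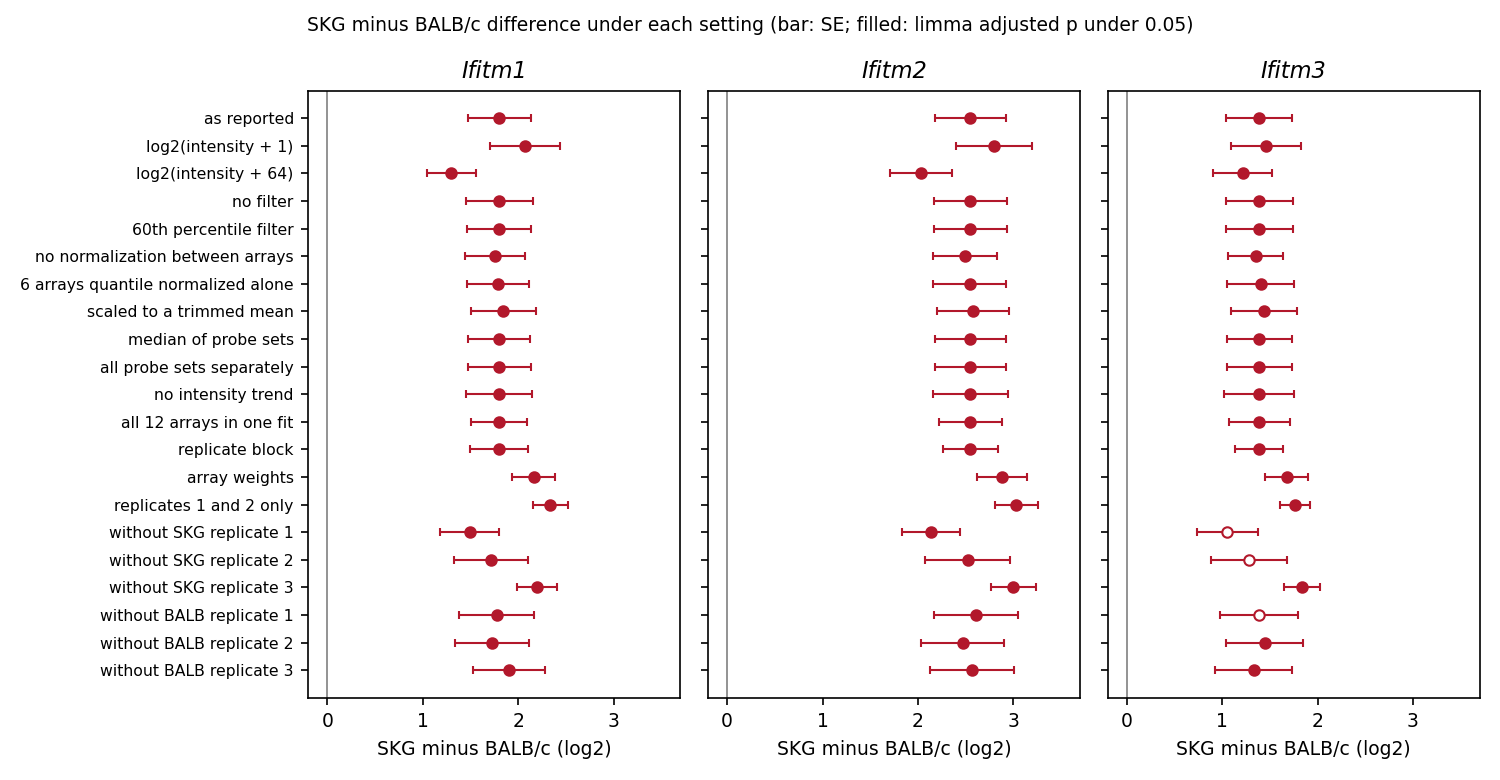
SKG minus BALB/c difference of each gene (x axis, log2 scale; bar, SE) as reported and under 20 other settings (y axis), filled where the limma adjusted p was under 0.05. All 60 alternative differences are above 0, and the 3 open circles are Ifitm3 with SKG replicate 1, SKG replicate 2 or BALB replicate 1 left out.

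In the transfer, the genes named by the labels were read first. Ifng, which encodes IFN-γ, had intensities of 744.1, 454.7 and 764.1 in the arrays labelled IFNg KO and 11967, 11997 and 12884 in those labelled IL-6 KO, and it fell by 4.14 ± 0.23 (SE; limma adjusted p = 0.0014). Il6, which encodes IL-6, had 7.4, 12.4 and 87 in the arrays labelled IFNg KO and 35.5, 40.6 and 201.1 in those labelled IL-6 KO. It was thus not lower where the label says it was deleted (5.38 ± 1.26 against 6.51 ± 1.31, SD, n = 3 each; limma adjusted p = 1.0, but 0.015 when replicate numbers were a block). Which part of each gene had been removed is not in the labels, so neither level is a full check of them.

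All 3 Ifitm genes were lower in the arrays labelled IFNg KO than in those labelled IL-6 KO, with no overlap between the groups. The difference was -2.50 on the log2 scale for Ifitm3, 5.66-fold, -1.997 for Ifitm2, 3.99-fold, and -1.31 for Ifitm1, 2.47-fold. Counted from the most negative of 12259 tested genes, they stood at places 6, 11 and 35, with Ifng at place 1. Every IFNg array was below every IL-6 array in 4.54% of tested genes, and by limma adjusted p 0.0489% passed downwards and 0.0653% upwards (0.922% and 0.661% with the block). These values chose Ifitm2 and Ifitm3 and support nothing further. With replicates 1 and 2 only, the differences were -2.53 for Ifitm3, -2.07 for Ifitm2 and -1.38 for Ifitm1. The 3 genes were thus high in SKG against its control and low in the IFNg transfer against the IL-6 transfer. The transfer direction was known when the genes were chosen, so this pair of directions is a description.

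Over the 12 arrays, the levels of Ifitm1 and Ifitm2 followed each other with a Pearson r of 0.934 and a Spearman rho of 0.888. The r was 0.928 for Ifitm2 and Ifitm3 (rho 0.958) and 0.823 for Ifitm1 and Ifitm3 (rho 0.846). These points share 4 groups. After each group's mean was subtracted the r was 0.966, 0.848 and 0.861, for the pairs of Ifitm1 with Ifitm2, Ifitm2 with Ifitm3 and Ifitm1 with Ifitm3. The SDs were 0.74 to 0.88 in SKG and 0.05 to 0.38 in the other groups. These r therefore rest largely on the SKG arrays and do not show that the genes vary together within every group. The genes are close relatives, and binding of 1 transcript to the probes of another was not tested, since probe sequences were not used here. The place of the IFNg transfer differed between the genes, above every SKG array for Ifitm1 and within the SKG range for Ifitm2 and Ifitm3.

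The other family members were dim. Ifitm6, the gene next to Ifitm3, was 5.21 ± 0.10 in SKG and 4.75 ± 0.28 in BALB (SD, n = 3 each; limma adjusted p = 0.17). It was 5.28 ± 0.06 in the IFNg transfer and 5.40 ± 0.61 in the IL-6 transfer (limma adjusted p = 1.0), and the sign of that difference changed with the scaling of the arrays. Ifitm5, Ifitm7 and Ifitm10 lay below the floor of both comparisons, the 40th percentile of all probe sets, and were not tested.

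In the RefSeq order on chromosome 7, Ifitm5 lies beside Ifitm2 at one end of the cluster and Ifitm6 beside Ifitm3 at the other. Of the 10 genes taken as neighbours, 5 on each side, 6 were tested. In SKG cells 2 of these 6 rose and 0 fell, against 15.8% and 11.8% of all tested genes. They were Pkp3, which encodes the desmosome protein plakophilin 3, with a rise of 0.86 ± 0.19 (SE; limma adjusted p = 0.0096), and the glycosyltransferase gene B4galnt4, with a rise of 0.65 ± 0.19 (limma adjusted p = 0.030). At an unadjusted p under 0.05, 4 were higher and 0 lower, against 22.4% and 16.5% of all tested genes. B4galnt4 lost its call under 6 of 20 other settings and Pkp3 under 2, with a difference of 0.42 from the median of its probe sets (limma adjusted p = 0.12). With the replicate block 3 rose, against 19.9% of all tested genes. Nlrp6, an innate immune receptor gene, passed in addition there (0.88, limma adjusted p = 0.075, blocked 0.013). The median difference of the 6 was 0.61, against 0.056 over all genes tested. Sigirr, an inhibitor of IL-1 receptor signalling, differed by 0.03 (limma adjusted p = 0.95). In the transfer 0 of the 6 passed in limma, 2 were higher at an unadjusted p under 0.05, against 2.52% of all tested genes, and 0 passed with the replicate block. The neighbours' median there was 0.38, on the other side of 0 from the Ifitm genes.

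The interferon ligands and receptors were examined next. In SKG cells Ifng rose by 0.77 ± 0.16 (SE; limma adjusted p = 0.0076), the only 1 of 3 tested ligand genes to pass, and this call was lost without normalization between arrays (adjusted p = 0.083). Of 9 tested receptor and signalling genes, 2 rose and 3 fell, against 15.8% and 11.8% of all tested genes. The kinase genes Tyk2 (0.86, limma adjusted p = 0.0053) and Jak2 (0.35, adjusted p = 0.013) rose. Ifnar1, a chain of the type I interferon receptor, fell by 1.08 (limma adjusted p = 0.0014), Ifngr2, a chain of the IFN-γ receptor, fell by 1.005 (adjusted p = 0.017), and Irf9, the DNA-binding part of the ISRE complex, fell by 0.49 (adjusted p = 0.049). With the replicate block 5 fell, against 14.6% of all tested genes. Ifnar1 and Tyk2 kept their calls under all 20 other settings, while Irf9 lost its call under 10, Jak2 under 5 and Ifngr2 under 1. With the median of its probe sets Jak2 differed by 0.16 (limma adjusted p = 0.24). Among 6 inhibitors of interferon signalling, Socs1 fell by 0.99 (limma adjusted p = 0.031), Ptpn6 fell by 0.76 (adjusted p = 0.012), and 0 rose, with 1 higher at an unadjusted p under 0.05. Socs1 lost its call under 4 other settings, with -0.64 as its smallest difference with 1 array left out, and Ptpn6 lost its call under 3.

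IFN-γ-induced genes did not rise with the Ifitm genes in SKG cells. Of 20 tested, 8 fell and 0 rose in limma, and 0 were higher at an unadjusted p under 0.05 or with the replicate block. Among all tested genes 11.8% fell and 15.8% rose. The median difference of the list was -0.61, against 0.056 over all genes tested. Cxcl10, a chemokine gene, fell by 2.57 ± 0.26 (SE; limma adjusted p = 0.00036). The GTPase genes Irgm2 (-1.72, limma adjusted p = 0.00037) and Irgm1 (-1.25, adjusted p = 0.0083) fell, as did Irf1, a transcription factor of the IFN-γ response (-1.13, adjusted p = 0.00016), and Tap1, a peptide transporter for antigen presentation (-0.81, adjusted p = 0.0022). Cxcl10, Irgm2, Irgm1 and Irf1 kept their calls under 20 other settings, and Tap1 under the 19 that gave it a value. Irf8 (-0.71, limma adjusted p = 0.0019), Igtp (-0.75, adjusted p = 0.0081) and Gbp6 (-0.97, adjusted p = 0.015) fell as well, and Gbp6 lost its call under 5 settings. With the replicate block 12 fell, against 14.6% of all tested genes. Without normalization between arrays 5 fell, and over all tested genes 830 fell there instead of 1423.

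Of 25 tested type I interferon antiviral genes, 3 rose, 3 fell and 19 did not pass in SKG cells, shares near the 15.8% and 11.8% of all tested genes. Their median difference was 0.26. Oas1a, which encodes an oligoadenylate synthetase that senses double-stranded RNA, was 9.04 ± 0.48 in SKG and 4.52 ± 0.17 in BALB (SD, n = 3 each). The BALB level was below the floor of 4.73 and the gene entered the test only through the SKG arrays. It is counted among the 3, but its difference depends on the added constant, from 3.02 with 64 to 6.05 with 1. Ly6e, a membrane protein gene that affects virus entry, rose by 3.11 ± 0.35 (adjusted p = 0.00055). Ifih1, the RNA sensor MDA5, rose by 1.09 (limma adjusted p = 0.025) but missed the threshold under 5 other settings. Samhd1, a dNTP hydrolase gene, fell by 1.39 (limma adjusted p = 0.011), but with the median of its probe sets the difference was -0.72 (adjusted p = 0.51). Oasl1 fell by 1.06 (limma adjusted p = 0.016) and Parp14 fell by 0.82 (adjusted p = 0.045), with calls lost under 2 and 9 other settings. Without SKG replicate 2 or without BALB replicate 2, 1 gene of the list fell. Over all tested genes 907 and 1048 fell under these settings, against 1423 as reported. With the replicate block 6 rose, against 19.9% of all tested genes, with Bst2, Oas3 and Trim30a past the threshold in addition. Classic members such as Ifit1 (-0.09, limma adjusted p = 0.89) and Irf7 (0.08, adjusted p = 0.87) did not pass.

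In the transfer, Ifng was the only gene of the interferon lists to pass in limma. Of 20 IFN-γ-induced genes 0 passed, 7 were lower at an unadjusted p under 0.05, against 1.84% of all genes tested, and 6 were lower with the replicate block, against 0.922%. The difference was below 0 for 19 of the 20, with a median of -0.50 against 0.0038 over all genes tested. The guanylate-binding protein gene Gbp2 was 8.65 ± 0.30 in the IFNg transfer and 10.13 ± 0.70 in the IL-6 transfer (SD, n = 3 each; limma adjusted p = 0.52, or 0.0032 in the blocked fit). Iigp1, an immunity-related GTPase gene, was 9.27 ± 1.61 and 11.55 ± 0.50 (limma adjusted p = 0.87, blocked 0.013). The chemokine gene Cxcl11 lay in the same direction (-1.15, limma adjusted p = 0.52, blocked 0.033). Cxcl9, counted among the 6, was 5.44 ± 0.19 in the IL-6 transfer but 4.22 ± 0.07 in the IFNg transfer (SD, n = 3 each), below the floor of 4.73, and entered the test only through the IL-6 arrays, so no size is given for its difference. Of 22 type I interferon genes 0 passed in limma, 2 were lower at an unadjusted p under 0.05 and 0 passed with the block, with a median of -0.18. Ddx58, the RNA sensor RIG-I, was the gene of that list with the smallest p (-0.69, limma adjusted p = 1.0). Ly6e, which rose in SKG cells, did not pass here (-0.19, limma adjusted p = 1.0). The receptor and signalling list had a median of 0.15, above 0. Among receptors, signalling genes and inhibitors 0 of 15 passed in limma or with the block, with 1 higher at an unadjusted p under 0.05, Ifngr2 (0.76, limma adjusted p = 0.83).

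**Figure D3:**
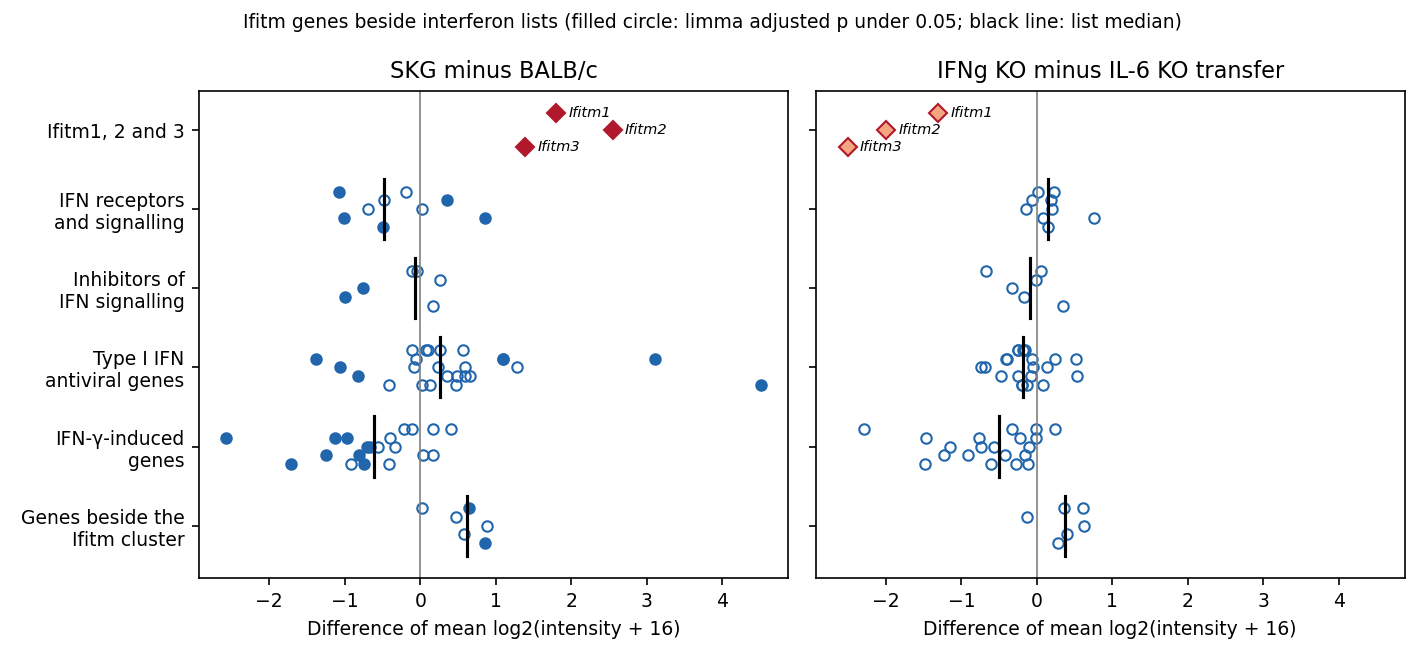
Difference of group means (x axis, log2(intensity + 16) scale) of the Ifitm genes (diamonds) and of each tested gene of 5 lists (circles) for SKG minus BALB/c and for the IFNg minus IL-6 transfer; filled circles have a limma adjusted p under 0.05, black lines are list medians, and the pale diamonds of the transfer were not tested. The Ifitm genes lie above 0 in SKG while the IFN-γ-induced list has a median of -0.61, and both lie below 0 in the transfer.

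Among genes whose products act on Ifitm proteins, 1 of 7 tested rose and 1 fell in SKG cells, shares near those of all tested genes (15.8% and 11.8%). Nedd4, a ubiquitin ligase that marks Ifitm3 for degradation, rose by 1.22 ± 0.20 (SE; limma adjusted p = 0.0026), and Setd7, a methyltransferase that modifies Ifitm3, fell by 0.70 ± 0.14 (adjusted p = 0.0066). Both calls were lost when probe sets of a gene were summarized by their median (limma adjusted p = 0.23 and 0.21). The kinase gene Fyn did not pass (-0.34, limma adjusted p = 0.076) but did in the blocked fit (0.044). Fyn missed the threshold under 16 of 20 other settings and passed without SKG replicate 3 (limma adjusted p = 0.0077). Among 8 other membrane factors of virus entry 1 rose and 2 fell, counts too small to set apart from these shares. Ly6e rose, and the tetraspanin genes Cd9 (-1.44 ± 0.19, limma adjusted p = 0.0010) and Cd81 (-1.09 ± 0.16, adjusted p = 0.0017) fell. Bst2 (0.56, limma adjusted p = 0.071) and Serinc3 (-0.36, adjusted p = 0.32) did not pass, but did with the block (0.038 and 0.036). Bst2 missed the threshold under 16 of 20 other settings and Serinc3 under 17. With the median of its probe sets Serinc3 passed (limma adjusted p = 0.016). In the transfer 0 of these 15 genes passed in limma or with the block, with 1 lower, Nedd4 (-0.63, limma adjusted p = 1.0), and 1 higher, Serinc5 (0.41, adjusted p = 1.0), at an unadjusted p under 0.05.

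Genes with the pattern most like each Ifitm gene were taken by Pearson r over the 12 arrays among 12175 genes. For Ifitm2 the first was Csf2, the gene of the cytokine GM-CSF, with an r of 0.979. Csf2 was 13.32 ± 0.16 in the IL-6 transfer, 12.07 ± 0.86 in SKG, 12.05 ± 0.06 in the IFNg transfer and 9.52 ± 0.18 in BALB (SD, n = 3 each), the group order of Ifitm2, and SKG replicate 3 was again the lowest SKG array. Blcap, Fam76a, Ifitm1 and Ccn4 followed. For Ifitm1 the first was Ptpn3, a tyrosine phosphatase gene (0.971), followed by Samsn1, Gcnt1, Atxn7l1 and Anapc4, with Ifitm2 at place 55 and Ifitm3 at place 963. For Ifitm3 the first was Zfp418, a zinc finger gene (0.951), followed by Ifitm2, B4galt5, Hrh4 and Selenoi. Zfp418 was dim, with group means of 4.93 in BALB to 5.64 in the IL-6 transfer, near the floor of 4.73. The mean of Hrh4 was 4.68 in SKG and 4.34 in BALB, below that floor, and 7.18 in the IL-6 transfer. These orders rest on 12 arrays in 4 groups. The genes were picked by likeness on these arrays, so a shared group order or low SKG replicate 3 adds nothing to it. Under other added constants, other scalings or with 1 array left out, between 1 and 5 of the 5 genes stayed among the first 5 for Ifitm1, and between 2 and 5 for Ifitm2 and for Ifitm3.

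**Figure D4:**
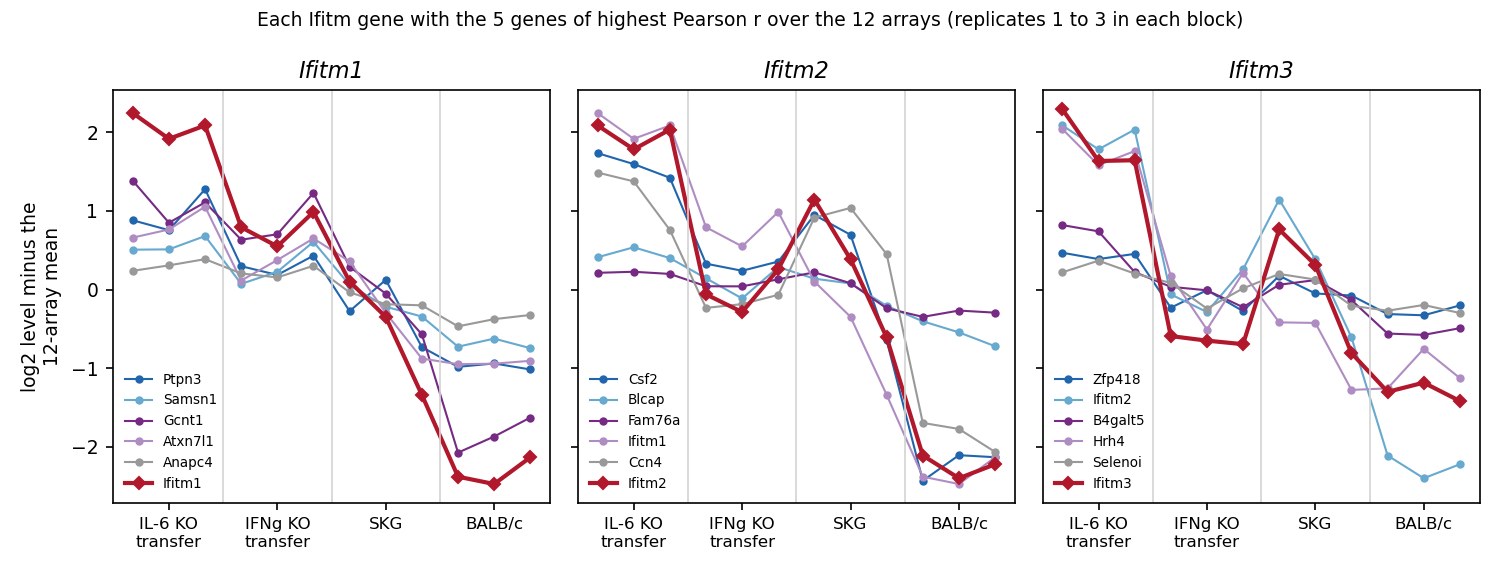
Level minus the gene's mean over the 12 arrays (y axis, log2) on each array by group (x axis, replicates 1 to 3 in each block) for each Ifitm gene and its 5 most similar genes; lines only join the arrays of a gene. Csf2, picked for its likeness on these arrays, runs with Ifitm2 through all 4 groups, and both are lowest in SKG at replicate 3.

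Markers of other cells and array quality were read beside these results. The 6 CD4 T cell marker genes on the array were above the floor on all 12 arrays. Their summed intensity was 8686 to 9069 in SKG and 9393 to 9631 in BALB, and the ranges overlapped in the transfer. Ifitm genes are also expressed by myeloid cells. The summed intensity of 10 macrophage and monocyte markers was 145 to 217 in SKG and 181 to 240 in BALB, and 239 to 278 in the IFNg transfer and 187 to 242 in the IL-6 transfer, with C1qa and C1qc below the floor on every array. These ranges overlapped in both comparisons. Neutrophil markers summed to 132 to 401 in the IFNg transfer and 64.3 to 1605 in the IL-6 transfer. They summed to 69.3 to 87.5 in SKG and 73.6 to 83.7 in BALB. Mast cell and basophil markers, Kit among them, summed to 119 to 151 in SKG and 324 to 347 in BALB. In the IFNg transfer they summed to 230 to 427, and in the IL-6 transfer to 86.3 to 144. B cell markers summed to 77.5 to 96.7 in the IFNg transfer and 58.9 to 70.5 in the IL-6 transfer, and overlapped between SKG and BALB. CD8 markers summed to 55.4 to 59.8 in the IFNg transfer and 41.3 to 54.9 in the IL-6 transfer. The 2 CD8 markers summed to 28.8 to 125 in SKG and 236 to 252 in BALB, and the sum followed Cd8b1, which fell by 2.51 on the log2 scale (limma adjusted p = 0.0034), while Cd8a differed by 0.81 in the other direction (adjusted p = 0.072). Plasma cell markers summed to 5628 to 5866 in SKG and 2602 to 3404 in BALB. The sum followed Xbp1, by far the brightest of them, at 12.29 ± 0.02 in SKG and 11.28 ± 0.15 in BALB (SD, n = 3 each). Of these 4 genes Xbp1, which other cells express too, rose by 1.01 (limma adjusted p = 0.00040) and Derl3 rose by 0.80 (adjusted p = 0.018), while Jchain (0.9993, adjusted p = 0.11) and Sdc1 (-0.64, adjusted p = 0.086) did not pass. In SKG, Kit fell by 1.39 (limma adjusted p = 0.0011) and Cd5 fell by 0.96 (adjusted p = 0.0056), while Zbtb46 (0.75, adjusted p = 0.048) did not pass in the blocked fit (0.055) and Cd3g (1.05, adjusted p = 0.050) passed only there. In the transfer Kit (1.54, limma adjusted p = 0.21), Derl3 (0.98, adjusted p = 0.23) and Cd5 (0.43, adjusted p = 1.0) passed only with the block (0.0041, 0.021 and 0.032). The actin 3' to 5' signal ratio, a sign of RNA quality, was 1.93 to 2.63 in SKG and 2.95 to 3.98 in BALB. In the transfer it was 3.81 and 5.13 in the replicates numbered 3 and 1.60 to 1.67 in the others. The same ratio for Gapdh was 2.57 to 3.03 in SKG and 2.86 to 3.28 in BALB, ranges that overlap. In the transfer the Gapdh ratio was 7.99 and 9.33 in the replicates numbered 3 and 2.42 to 2.84 in the others. The part of macrophage, CD8, plasma cell, neutrophil, mast cell and B cell transcripts and of RNA quality in the Ifitm differences was not tested.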

How the data were processed

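RNA was isolated with RNeasy and labelled by in vitro transcription, per the labels' protocols. The deposited values are linear intensities, 1 per probe set and array, and the sources used here do not name the software or normalization behind them. After removal of 64 control probe sets, 16 was added, log2 was taken and the 12 arrays were quantile normalized together, so a fold is on the log2(intensity + 16) scale and understates changes of dim genes. Symbols came from the platform annotation, with 34945 probe sets listing 1 gene, 932 several and 9160 not listed. For 34741 of those with 1 gene, the gene ID was found in GRCm38.p6 and the symbol given there was used, changed or not. The brightest probe set stood for each of 18193 genes. Genes with a 6-array mean at or above the 40th percentile of all probe sets were tested. The 6 arrays of a comparison entered limma (version 3.58.1, R 4.3.3) alone. lmFit and trended eBayes gave two-sided p-values, which were adjusted over all genes tested by Benjamini-Hochberg and called under 0.05. The fit was tested on simulated data.

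The members and lists were chosen with earlier results of these data known. Named were the members, Ifng, Il6, the other Ifitm genes, the neighbours of the cluster, up to 4 genes of a list with the smallest p, the 5 most similar genes per member, and markers that passed or differed by over 1. Named outside that rule, after their values were seen, were Tap1, Igtp, Gbp6, Irf9, Ifih1, Parp14, Oas3, Trim30a, Ifit1, Irf7, Iigp1, Serinc3, Cd8a, Jchain and Sdc1, and in the transfer Ly6e, Derl3 and Cd5. The ISRE string was shortened by its last letter after matches to the longer form, at the same places, were seen. Same-numbered arrays deviated together (correlations across genes of 0.13, 0.20 and 0.33 between SKG and BALB, and 0.46, 0.45 and 0.70 in the transfer). Replicate 3 of a group correlated with replicates 1 and 2 of the other at -0.26 to -0.20 between SKG and BALB. In the transfer these values were -0.58 to -0.53. The deviations are from means of 3 arrays, so 1 array that stands apart shapes all of them, and the cause was not tested. Replicate 1 of a group and replicate 2 of the other correlated similarly (0.17 and 0.17 between SKG and BALB, 0.44 and 0.41 in the transfer). Fits with a replicate block are given where they changed the call of a gene or list described. The number of arrays limits the precision.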

Additional observations from a re-analysis of the deposited data

How the results depend on the processing

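All 60 alternative SKG minus BALB differences of the Ifitm genes were above 0 and 57 passed in limma. Leaving out 1 array gave 1.49 to 2.20 for Ifitm1, 2.14 to 3.001 for Ifitm2 and 1.05 to 1.84 for Ifitm3, whose 3 lost calls are given above. The replicate block left these 3 calls in place (adjusted p = 0.0030, 0.00055 and 0.0043 for Ifitm1, Ifitm2 and Ifitm3). All 60 alternative transfer differences were below 0, from -1.41 to -1.20 for Ifitm1, -2.14 to -1.87 for Ifitm2 and -2.62 to -2.29 for Ifitm3.

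Counts over all genes moved more, and the cause was not tested. Against 1904 higher and 1423 lower in SKG, there were 1130 and 830 without normalization, 2911 and 2208 with array weights, 2864 and 2204 with replicates 1 and 2 only (a setting chosen after the values were seen), 2670 lower with all probe sets fitted separately, and 1123 to 2196 higher and 884 to 1719 lower with 1 array left out. The replicate block gave 2408 and 1768. Against 8 higher and 6 lower in the IFNg transfer, there were 5 higher with no filter, 4 higher with the median of probe sets, 22 higher with all 12 arrays in one fit, 81 and 113 with the replicate block, 96 and 92 with array weights, 265 and 245 with replicates 1 and 2 only, and 1 to 16 higher and 1 to 10 lower with 1 array left out. The transfer difference of Ifitm6 turned from -0.13 to 0.0205 with trimmed-mean scaling, 0.16 with array weights, 0.25 with replicates 1 and 2 only and 0.22 without IL-6 replicate 3, within a range of -0.35 to 0.22 with 1 array left out. The brightness of a probe set over background and 3 arrays per group limit what could be detected.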
